A study of Mus musculus with 12 samples.

Results

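The insulin-like growth factor (IGF) binding proteins described here are the products of Igfbp1, Igfbp2, Igfbp3, Igfbp4 and Igfbp7. These 5 genes were chosen by symbol from the 36047 genes to which transcripts of the liver RNA-seq libraries could be assigned, and all 5 were among the 14670 genes that passed the filter on low counts. The study fed male C57Bl/6J mice regular-fat (RF) or high-fat (HF) diets, each either with control sulfur amino acids (Ctrl) or restricted in sulfur amino acids (SAAR), and liver RNA was taken after 7 days. The 12 livers formed 4 groups of 3 mice, named RF.Ctrl and RF.SAAR at regular fat and HF.Ctrl and HF.SAAR at high fat. All diets lacked cysteine, so the controls shared that feature, and the SAAR diets held less methionine. The mice were adults of 1 sex and 1 strain, were housed singly and were food deprived before collection, and their drinking water was enriched in deuterium for a proteomic arm of the study. Whole liver was sequenced, so a change in the share of a cell type and a change in RNA per cell cannot be told apart.

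IGF-binding proteins are secreted proteins that bind IGF1 and IGF2 in the circulation and in tissues, slow their clearance and limit their access to the IGF1 receptor. Liver is the main source of circulating IGF1 and of IGFBP1 and IGFBP2. Igfbp1 transcription is repressed by insulin through forkhead (FoxO) transcription factors and rises in fasting and when amino acids are short, whereas IGFBP3 carries most circulating IGF1 in a complex with the acid-labile subunit encoded by Igfals. IGFBP4 is a binding protein cleaved by the protease PAPP-A, and IGFBP7 is a related protein with low affinity for IGFs.

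In GRCm38 coordinates, Igfbp1 (11:7197782-7202546, plus strand) and Igfbp3 (11:7206086-7213923, minus strand) are tail-to-tail neighbours with 3539 bases between them. Igfbp2 (1:72824503-72852474, plus strand) lies 5457 bases from Igfbp5, a binding protein of the same family. Igfbp4 is at 11:99041244-99054392 on the plus strand and Igfbp7 at 5:77349240-77408041 on the minus strand. Each of the 5 genes was carried by 1 protein-coding transcript, with 91.4% to 100% of the counts of its gene. Only Igfbp4 had a further transcript over 5% of its counts, a processed transcript of 785 bases with 6.23% of them and between 5.26% and 7.1% in each mouse.

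The 250 bases before the RefSeq start of each gene were read from RefSeq promoters (GRCm38.p6), in which all 5 genes were found. They were searched on both strands for 4 short motifs. These starts can differ by some bases from the gene coordinates above, and distances below refer to the RefSeq start. Igfbp2 had 2 entries, of which only the first was searched. The promoters of Igfbp1 and Igfbp4 are shown because they held the matches among the 5, and that of Igfbp2 because this gene had the smallest p-value among the 5 for the averaged SAAR effect. Capitals mark matched letters, and sequences run 5′ to 3′ in the direction of the gene.
Igfbp1 (chr11:7197537-7197786, plus strand): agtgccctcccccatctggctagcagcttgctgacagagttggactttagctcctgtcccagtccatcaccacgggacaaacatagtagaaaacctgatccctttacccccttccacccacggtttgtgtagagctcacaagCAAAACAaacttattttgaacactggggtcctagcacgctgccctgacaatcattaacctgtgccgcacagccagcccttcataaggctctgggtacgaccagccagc
Igfbp2 (chr1:72824230-72824479, plus strand): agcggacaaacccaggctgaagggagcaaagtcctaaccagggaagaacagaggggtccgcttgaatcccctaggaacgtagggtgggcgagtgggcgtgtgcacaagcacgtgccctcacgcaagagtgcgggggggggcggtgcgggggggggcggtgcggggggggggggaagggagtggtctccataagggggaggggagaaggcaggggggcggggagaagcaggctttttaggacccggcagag
Igfbp4 (chr11:99040994-99041243, plus strand): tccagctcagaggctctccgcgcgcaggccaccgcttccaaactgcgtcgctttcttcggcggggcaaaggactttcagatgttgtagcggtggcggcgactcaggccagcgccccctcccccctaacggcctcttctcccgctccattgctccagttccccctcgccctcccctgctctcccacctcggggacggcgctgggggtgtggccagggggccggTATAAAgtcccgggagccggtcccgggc
The insulin response element core CAAAACA stood 108 to 102 bases before the Igfbp1 start and in none of the other windows searched for the 5 genes. It was present in 5.56% of 32851 mouse promoters of the same length. The TATA box core TATAAA stood 28 to 23 bases before the Igfbp4 start and was present in 12.4% of all promoters. The forkhead core TGTTTAC, found in 3.17% of all promoters, and the amino acid response element core TGATGNAA, found in 3.45%, were not in these windows. The windows differed in base composition, from 53.2% G and C with 5 CG pairs in Igfbp1 to 74% with 26 CG pairs in Igfbp7. The Igfbp1 window had the lowest G and C content of the 5.

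On a scale that divides by transcript length (TPM, a transcript abundance scaled to the same total in each library), Igfbp2 and Igfbp4 were the most abundant of the 5 transcripts. Over the 12 mice, Igfbp2 had a median of 437 TPM (196 to 748) and Igfbp4 a median of 412 TPM (343 to 553). Their ranges overlapped, and they made up on average 40.1% and 42.8% of the summed TPM of the 5 genes. Igfbp7 followed with a median of 74.3 TPM (56.4 to 99.0) and Igfbp1 with 63.6 TPM (25.2 to 529), and these neighbours in the order also overlapped. Igfbp3 was the lowest in every mouse, with a median of 5.99 TPM (4.28 to 7.31). Igf1, the ligand, had group means between 354 ± 21.9 (SD, n = 3) TPM in RF.SAAR and 374 ± 36.5 (SD, n = 3) TPM in HF.Ctrl, in the range of Igfbp4. The depth was 16203094 to 21230092 estimated counts per mouse. Behind these levels stood 14364 to 22529 estimated counts per mouse for Igfbp4 and 171 to 291 for Igfbp3.

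**Figure D1:**
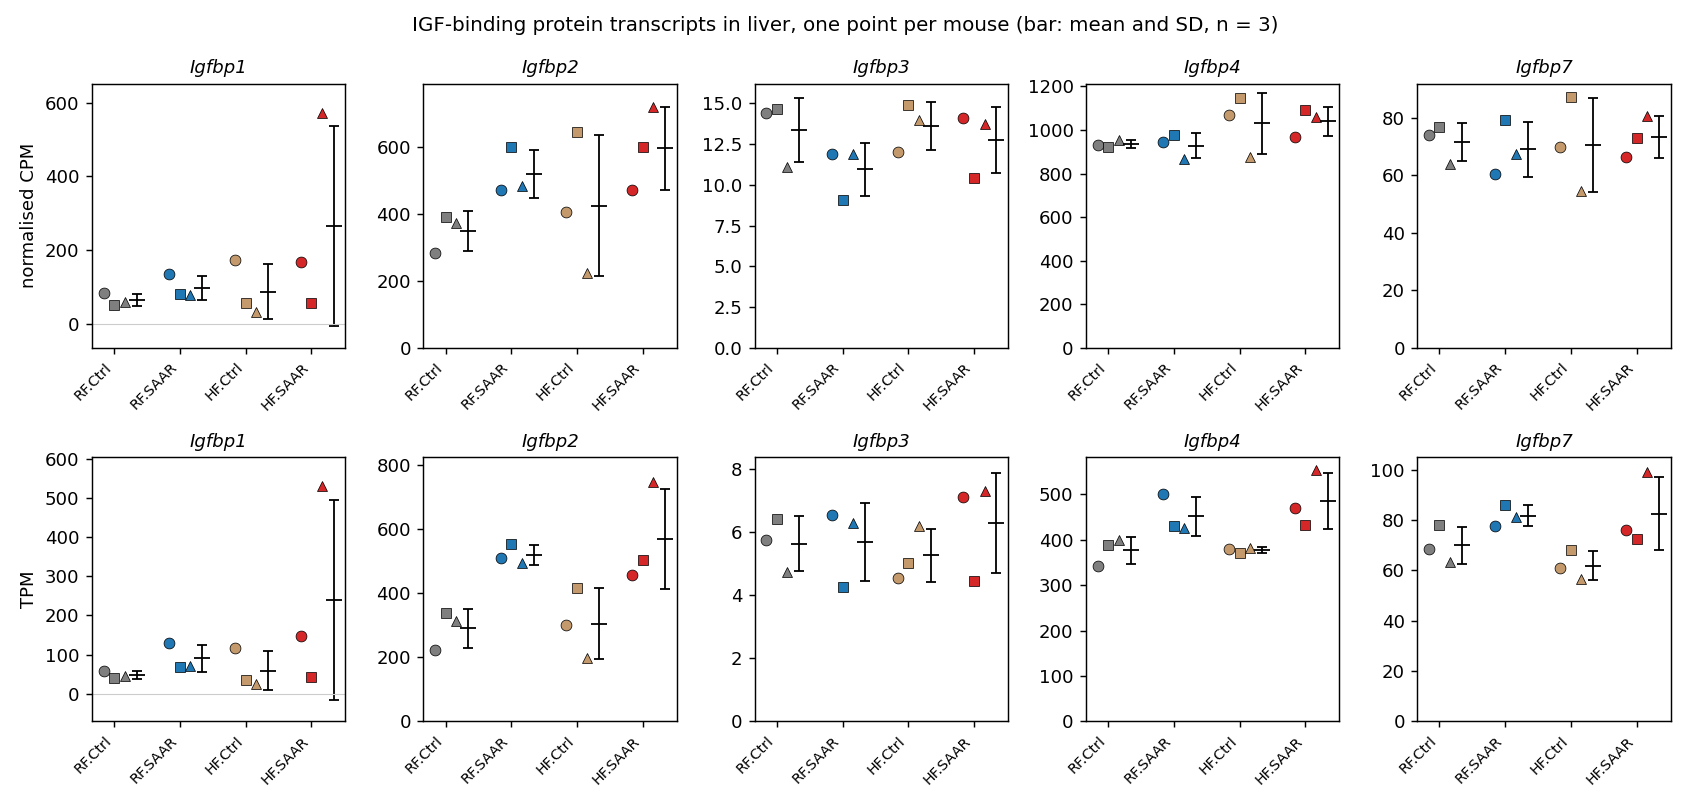
Level of each IGF-binding protein transcript in the 12 livers, as normalised CPM (counts scaled to a common library size with TMM factors, upper row) and TPM (lower row), by group; circles, squares and triangles are replicates 1, 2 and 3, and the bars give mean and SD (n = 3). Igfbp1 in replicate 3 of HF.SAAR stands at 573 CPM, above the other 11 mice, and Igfbp4 in SAAR mice lies above Ctrl mice in TPM but not in CPM.

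None of the 5 transcripts passed the threshold of 0.05 on the adjusted p-value in any comparison by the quasi-likelihood test of edgeR. Among all tested genes, SAAR changed 1.49% (218) at regular fat, 1.97% (289) at high fat and 6.92% (1015) when averaged over both fat levels. High fat changed 0.00% of genes under the control diet (0 genes, with 527 at an unadjusted p under 0.05, and 31 called by DESeq2), 0.0477% under SAAR (7 genes) and 0.0409% when averaged over diets (6 genes). The interaction of diet and fat passed in 0.00682% (1 gene). Igfbp1 and Igfbp2 had positive estimates in each SAAR comparison. Igfbp4 and Igfbp7 had averaged estimates of 0.00 on the log2 scale.

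Igfbp1, the insulin-repressed binding protein, was the most variable of the 5 between mice of a group. In RF.Ctrl its level was 84.4, 52.7 and 58.7 normalised CPM, and in RF.SAAR it was 135, 81.7 and 78.4 CPM. In HF.Ctrl it was 173, 57.9 and 32.4 CPM, and in HF.SAAR 167, 57.5 and 573 CPM. The groups overlapped at both fat levels, replicate 3 of HF.SAAR was the highest of the 12 mice, and replicate 1 of HF.Ctrl came next. The fitted biological coefficient of variation was 67.7%, a dispersion that exceeded that of 97.8% of the tested genes, against 28.2% for Igfbp2 and 14.3% to 16.5% for the other 3 binding proteins. The highest mouse was 17.69-fold above the lowest.

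By the edgeR test, the Igfbp1 log2 fold change was 0.59 (SE 0.84, 95% confidence interval −1.34 to 2.52, adjusted p = 0.863) for RF.SAAR against RF.Ctrl. At high fat it was 1.60 (SE 0.86, interval −0.37 to 3.56, adjusted p = 0.519 by edgeR), a fitted ratio of 3.03. The averaged SAAR effect was 1.09 (SE 0.60, interval −0.28 to 2.47, adjusted p = 0.364 by edgeR). These intervals hold both no change and increases of more than 2 on the log2 scale, so the data did not resolve whether Igfbp1 rose. Replicate 3 of HF.SAAR carried much of the estimate: without it the high-fat value was 0.35 and the averaged value 0.47, whereas leaving out replicate 1 of HF.Ctrl gave 2.56 and 1.57. The interaction, 1.01 (SE 1.19, interval −1.71 to 3.74, adjusted p = 0.999 by edgeR), was −0.23 without that mouse of HF.SAAR. The same mouse had the largest sum of pancreatic acinar cell markers, 19780 CPM. Replicate 2 of HF.Ctrl had the next largest sum, 7395 CPM, with 57.9 CPM of Igfbp1. The part of acinar RNA in the Igfbp1 level was not tested.

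**Figure D2:**
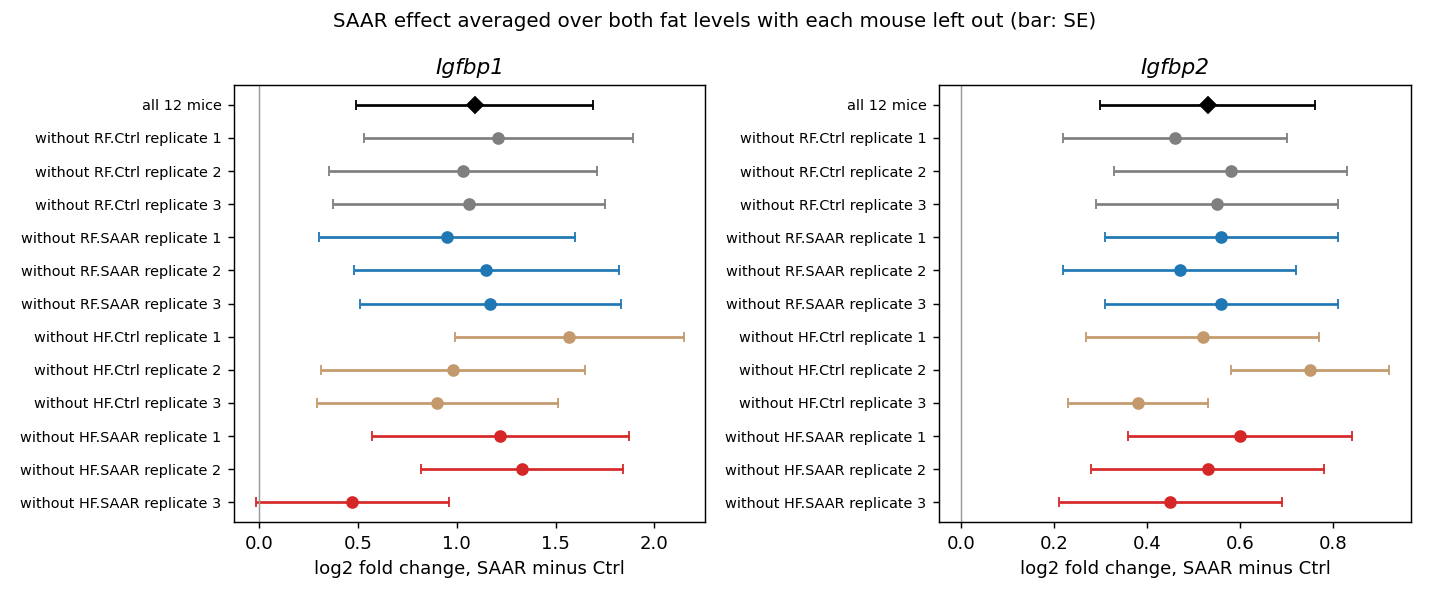
Averaged SAAR effect on Igfbp1 (left) and Igfbp2 (right) with all 12 mice and with each mouse left out; the x axis is the log2 fold change, SAAR minus Ctrl, points are edgeR estimates and bars are SE. All estimates are above 0; that of Igfbp1 falls to 0.47 without replicate 3 of HF.SAAR, and that of Igfbp2 runs from 0.38 without replicate 3 of HF.Ctrl to 0.75 without replicate 2 of HF.Ctrl.

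Igfbp2, which encodes another binding protein that hepatocytes secrete, was higher on average in SAAR at both fat levels, by an amount that did not pass the test. Its level was 282, 393 and 372 CPM in RF.Ctrl and 471, 601 and 485 CPM in RF.SAAR. In HF.Ctrl it was 407, 645 and 224 CPM, and in HF.SAAR 472, 600 and 720 CPM. At regular fat every SAAR mouse lay above every control mouse, as did 8.49% of all tested genes, and at high fat replicate 2 of HF.Ctrl lay within the SAAR range. The ratio of means was 1.49 at regular fat and 1.4 at high fat. The log2 fold change was 0.57 (SE 0.32, interval −0.14 to 1.29, adjusted p = 0.510 by edgeR) at regular fat and 0.49 (SE 0.32, interval −0.22 to 1.20, adjusted p = 0.618 by edgeR) at high fat.

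Averaged over both fat levels, the Igfbp2 effect was 0.53 (SE 0.23, interval 0.03 to 1.04), with an adjusted p of 0.222 by edgeR (0.0410 before adjustment). This was the smallest unadjusted p of the 5 transcripts in that comparison. It depended on replicate 2 of HF.Ctrl, without which the effect was 0.75 and the adjusted p 0.0305 by edgeR. The interaction of diet and fat was −0.08 (SE 0.45, interval −1.09 to 0.92, adjusted p = 0.999 by edgeR), so a difference of the SAAR effect between fat levels was not resolved.

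Igfbp3, which carries IGF1 in the ternary complex, was low in all mice and did not pass in any comparison. RF.Ctrl mice had 14.4, 14.6 and 11.1 CPM and RF.SAAR mice 11.9, 9.07 and 11.9 CPM, while HF.Ctrl mice had 12.0, 14.9 and 14.0 CPM and HF.SAAR mice 14.1, 10.4 and 13.7 CPM. SAAR and control mice overlapped at both fat levels. The log2 fold change was −0.29 (SE 0.16, interval −0.64 to 0.06, adjusted p = 0.501 by edgeR) at regular fat, −0.10 (SE 0.16, interval −0.45 to 0.25, adjusted p = 0.881 by edgeR) at high fat and −0.19 (SE 0.12, interval −0.44 to 0.05, adjusted p = 0.384 by edgeR) on average. In liver this gene is known from non-parenchymal cells, and the markers of endothelial cells (426 to 495 summed CPM) and stellate cells (362 to 486 summed CPM) were present in all 12 livers.

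Igfbp4 had the narrowest estimates of the 5. Its level was 931, 921 and 954 CPM in RF.Ctrl and 943, 976 and 865 CPM in RF.SAAR. At high fat it was 1070, 1148 and 876 CPM in the controls and 966, 1092 and 1061 CPM under SAAR. On this scale the SAAR and control mice were intermingled, and the averaged SAAR effect was 0.00 (SE 0.07, interval −0.16 to 0.16, adjusted p = 0.999 by edgeR). Igfbp7 ranged from 54.4 to 87.4 CPM over the 12 mice, with the lowest and the highest value both in HF.Ctrl. Its averaged SAAR effect was also 0.00 (SE 0.11, interval −0.24 to 0.24, adjusted p = 0.995 by edgeR). For both genes, an averaged change beyond 0.24 in either direction on this scale lay outside the interval.

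**Figure D3:**
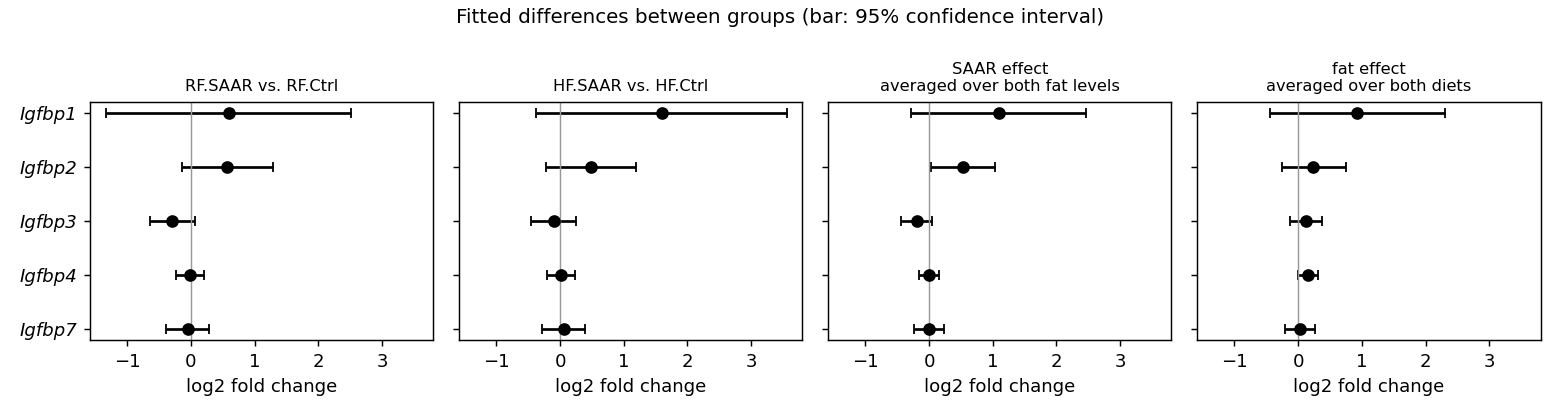
Fitted log2 fold changes of the 5 transcripts with 95% confidence intervals for SAAR at regular fat, SAAR at high fat, the averaged SAAR effect and the averaged effect of fat (high minus regular). Intervals are widest for Igfbp1, reach from −0.37 to 3.56 at high fat, and are narrowest for Igfbp4.

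The effect of dietary fat on the binding proteins was not resolved either. Averaged over both diets, the log2 fold change of HF against RF was 0.93 (SE 0.60, interval −0.44 to 2.30) for Igfbp1 and 0.24 (SE 0.23, interval −0.26 to 0.75) for Igfbp2, with adjusted p of 0.963 and 0.994 by edgeR. Igfbp4 had the smallest unadjusted p of the 5 in this comparison, 0.0550 by edgeR, with a log2 fold change of 0.15 (SE 0.07) and an adjusted p of 0.877. In normalised CPM, replicates 1 and 2 of HF.Ctrl and replicates 2 and 3 of HF.SAAR were the highest 4 mice for Igfbp4. In TPM these 4 mice had 379, 371, 434 and 553 and were not the highest 4, since replicate 1 of RF.SAAR had 500.5. These same 4 mice had the largest sums of 34 markers of pancreatic acinar cells, 1995, 7395, 4367 and 19780 CPM, with replicate 1 of RF.Ctrl next at 1740 CPM and the other 7 mice between 24.1 and 77.1 CPM. Across the 12 mice, Pearson's r was taken between the log2 acinar sum and the log2 normalised CPM of each binding protein. It was 0.79 for Igfbp4, 0.64 for Igfbp7, 0.42 for Igfbp2, 0.39 for Igfbp1 and 0.19 for Igfbp3, values that share the library and its scaling. The sum of 8 Kupffer cell markers, 299.8 to 491 CPM with none at 0 in any mouse, had an r of 0.62 with Igfbp7 and 0.52 with Igfbp2. At high fat all 8 had positive SAAR estimates (median 0.26, 0 called), whereas at regular fat 2 of 8 did (median −0.09, 0 called). The Kupffer sums were 342, 491 and 406 CPM in HF.SAAR against 299.8, 410 and 326 CPM in HF.Ctrl, which overlap. The sum of 6 cholangiocyte markers was 35.2 to 38.7 CPM in HF.SAAR against 43.1 to 58.3 CPM in HF.Ctrl. Of these markers 5 were tested, 2 of the 5 had positive SAAR estimates at high fat, and 0 were called (median −0.28). At regular fat 0 of the 5 had positive estimates and 0 were called (median −0.42). In the averaged SAAR effect 1 of the 5 was called lower (median −0.39), as were 3.70% of all tested genes. Among all tested genes, 8.98% had every HF.SAAR mouse below every HF.Ctrl mouse. The cholangiocyte sum had an r of −0.48 with Igfbp2 and −0.41 with Igfbp1. Endothelial markers had an r of −0.57 with Igfbp4 and 0.15 with Igfbp3. Stellate markers had one of 0.48 with Igfbp3, and cholangiocyte markers one of 0.46. Of 10 stellate markers, 1 had a positive SAAR estimate at regular fat (median −0.12) and 3 did at high fat (median −0.20). At regular fat 1 of the 10 was called lower, against 0.886% of all tested genes, and at high fat 0 were called. The part of these cell types in the levels of the binding proteins was not tested. Without the 5 mice with over 1000 CPM of these markers, an alternative chosen after the values were seen, the fat effect was −0.02 on Igfbp4, −0.01 on Igfbp1 and −0.45 on Igfbp2, and none passed. With the log2 acinar sum as a covariate it was −0.15 on Igfbp2.

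In the 7 mice that remained, the averaged SAAR effects on Igfbp1 and Igfbp2 were larger than in all 12. The effect was 1.58 for Igfbp1 and 0.75 for Igfbp2. At high fat these values rested on 1 mouse a group, replicate 1 of HF.SAAR against replicate 3 of HF.Ctrl. The latter had the lowest Igfbp1 and Igfbp2 of all 12 mice. The spread of the single mice was assumed to equal that of the other groups, so no call is read from these averaged values. At regular fat the estimates of 0.82 for Igfbp1 and 0.44 for Igfbp2 did not pass (adjusted p = 0.279 and 0.259 by edgeR). With the log2 acinar sum as a covariate in all 12 mice, the averaged effects were 1.19 for Igfbp1 and 0.59 for Igfbp2, and neither passed (adjusted p = 0.286 and 0.0962 by edgeR). The part of acinar RNA in these values was not tested further.

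The scale on which the libraries were compared changed what was seen for Igfbp4, Igfbp7 and Igfbp2. The normalised CPM above use TMM factors, which were 0.980 to 1.110 in SAAR libraries and 0.863 to 0.998 in Ctrl libraries, whereas TPM carry no such factor. In TPM, Igfbp4 was 343, 388 and 399 in RF.Ctrl and 500.5, 429 and 425 in RF.SAAR, and 379, 371 and 383 in HF.Ctrl and 469.6, 434 and 553 in HF.SAAR. On this scale SAAR and control mice did not overlap at either fat level. The same held for Igfbp2, at 493 to 552 TPM in RF.SAAR against 222 to 339 in RF.Ctrl and 457 to 748 in HF.SAAR against 196 to 416 in HF.Ctrl. Igfbp1 was separated at regular fat alone (67.8 to 130.4 against 41.2 to 59.3 TPM) and Igfbp7 at high fat alone (72.6 to 99.0 against 56.4 to 68.0 TPM).

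Such separation in TPM was common: all SAAR mice lay above all control mice in 26.6% of tested genes at regular fat and 27.7% at high fat. In normalised CPM the shares were 8.49% and 8.90%. With limma on log2(TPM + 1), the averaged SAAR effect was 0.90 (SE 0.18, adjusted p = 0.00497) for Igfbp2, 0.31 (SE 0.08, adjusted p = 0.0134) for Igfbp4 and 0.31 (SE 0.09, adjusted p = 0.0284) for Igfbp7, against a median of 0.21 over all tested genes. Relative to that median Igfbp2 stood well above and Igfbp4 and Igfbp7 slightly above. Igfbp1 (1.25) and Igfbp3 (0.10) did not pass on this scale. When counts were scaled by library size alone, Igfbp2 passed (0.71, adjusted p = 0.0379 by edgeR), with the median of all genes at 0.16.

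**Figure D4:**
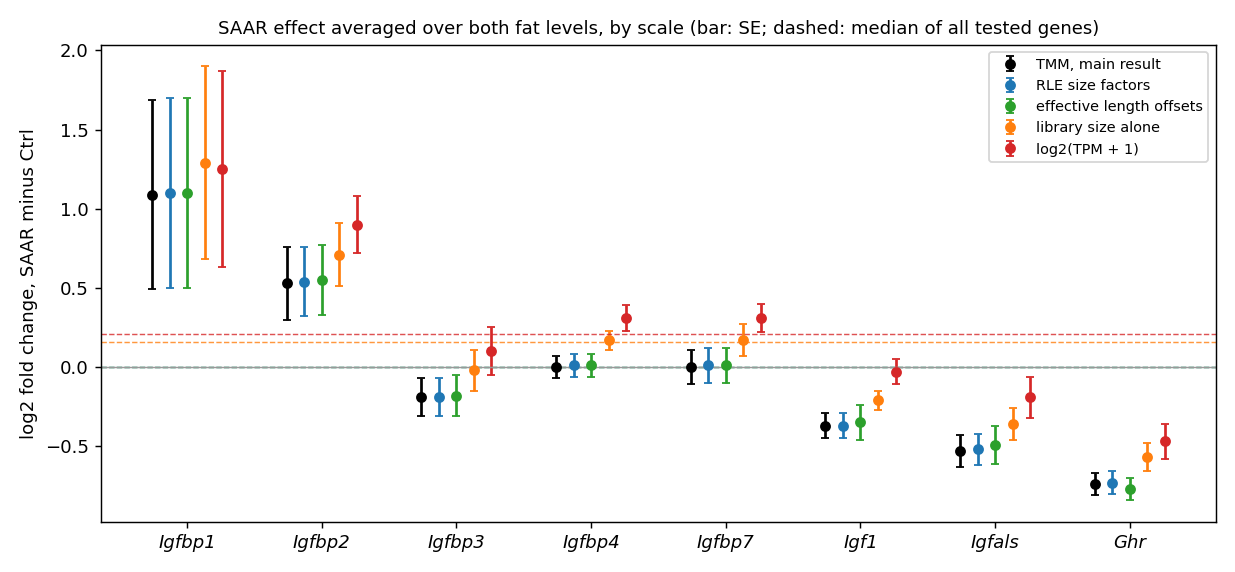
Averaged SAAR effect (log2 fold change, bars SE) on the 5 binding proteins and on Igf1, Igfals and Ghr under 5 ways of scaling the libraries, with the median of all tested genes under each alternative scaling as a dashed line. Values on the TPM and library-size scales lie above the TMM values in all 8 genes, and the median of all tested genes stands at 0.21 and 0.16 on these scales.

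Around the binding proteins, the other genes of the IGF axis moved down or did not pass. Igf1 was 417, 428 and 362 CPM in RF.Ctrl against 298, 339 and 311 CPM in RF.SAAR, and 417, 495 and 383 CPM in HF.Ctrl against 311, 351 and 319 CPM in HF.SAAR. The SAAR mice were all below their controls at both fat levels, as were 9.74% of tested genes at regular fat and 8.98% at high fat. The averaged effect on Igf1 was −0.37 (SE 0.08, adjusted p = 0.0118 by edgeR) and that on Igfals, the acid-labile subunit, −0.53 (SE 0.10, adjusted p = 0.00511 by edgeR). In TPM these effects were −0.03 and −0.19 and did not pass (adjusted p = 0.805 and 0.285 by limma), and with the 7 mice they were −0.32 and −0.66 and did not pass (adjusted p = 0.233 and 0.0830 by edgeR). With offsets for effective length, Igf1 did not pass either (−0.35, adjusted p = 0.0817 by edgeR). Ghr, the growth hormone receptor whose signaling drives Igf1 and Igfals transcription, fell at regular fat (−0.66, SE 0.10, adjusted p = 0.00482 by edgeR), at high fat (−0.81, SE 0.10, adjusted p = 0.000761 by edgeR) and on average (−0.74). In TPM its averaged change was −0.47 and passed (adjusted p = 0.00844 by limma), whereas the values of −0.46 at regular fat and −0.47 at high fat did not (adjusted p = 0.115 and 0.0621 by limma).

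The remaining family members Igfbp5, Igfbp6 and Igfbpl1 were low and none of the 3 passed. Igfbp5 had group means of 1.07 to 1.41 TPM and Igfbp6 of 1.48 to 3.27 TPM. None of the receptors Igf1r, Igf2r and Insr passed (0 of 3). Of the 5 proteases that cleave binding proteins and their inhibitors, Pappa, Stc1 and Stc2 were too low to be tested, and Pappa2 and Htra1 did not pass. Of 6 genes of growth hormone signaling, Ghr fell and Stat5a, a transcription factor of that pathway, rose on average (0.57, SE 0.13, adjusted p = 0.0180 by edgeR). That call was lost without replicate 1 of HF.Ctrl (0.54, adjusted p = 0.0539 by edgeR) and in the 7 mice (0.33, adjusted p = 0.355 by edgeR). The feedback genes Cish and Socs2 did not pass.

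**Figure D5:**
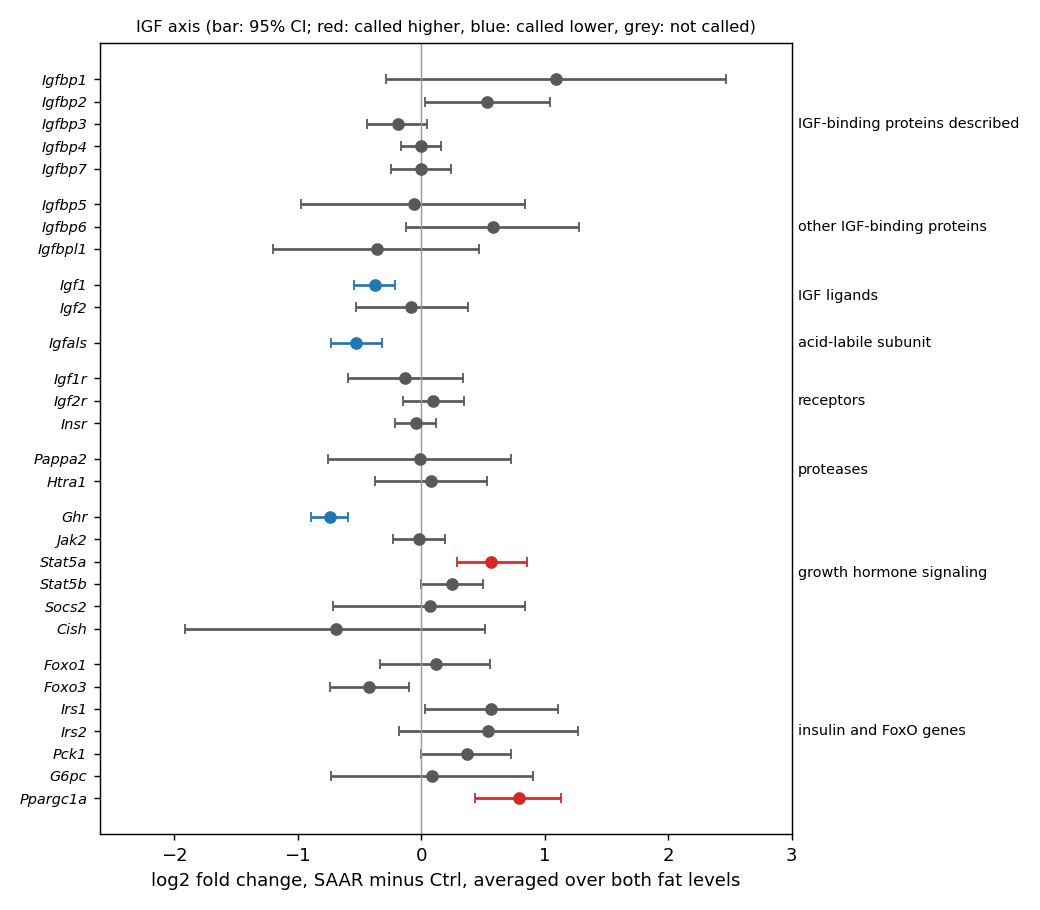
Averaged SAAR effect (log2 fold change, SAAR minus Ctrl, with 95% confidence interval) on the 5 binding proteins and on listed genes of the IGF, growth hormone and insulin pathways. Genes called lower are Igf1, Igfals and Ghr, genes called higher are Stat5a and Ppargc1a, and the interval of Igfbp2 runs from 0.03 to 1.04 without a call.

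Genes that share regulators with Igfbp1 were set beside it. Of 7 genes of insulin and FoxO signaling, only Ppargc1a, a coactivator of fasting genes, passed, with 1.18 (SE 0.23, adjusted p = 0.0185 by edgeR) at high fat and 0.79 (SE 0.16, adjusted p = 0.0107 by edgeR) on average. Neither passed in the 7 mice (1.67 and 1.05, adjusted p = 0.268 and 0.0782 by edgeR), and the high-fat call was also lost without replicate 1 or 3 of HF.Ctrl, without replicate 1 of HF.SAAR (0.94 to 1.13, adjusted p up to 0.0961 by edgeR) and with offsets for effective length (1.02, adjusted p = 0.0719 by edgeR). The gluconeogenic genes Pck1 and G6pc, which also respond to insulin, had averaged values of 0.37 (SE 0.17) and 0.09 (SE 0.36) and did not pass. Of 19 genes of the integrated stress response, a list the study compiled from earlier publications, 3 rose at regular fat, 6 at high fat and 8 on average. Asns, which makes asparagine, was 9.84-fold higher at high fat (log2 fold change 3.30, adjusted p = 0.0324 by edgeR). The estimate was of like size where the call was lost, at 3.31 with the acinar covariate (adjusted p = 0.0507 by edgeR) and 3.57 in the 7 mice, which leave 1 mouse in each high-fat group (adjusted p = 0.475 by edgeR). Asns levels in HF.SAAR were 48.6, 29.9 and 59.6 CPM against 3.21, 6.67 and 4.02 CPM in HF.Ctrl. Every HF.SAAR mouse thus lay above every HF.Ctrl mouse, as in 8.90% of all tested genes. Igfbp1 overlapped in the same mice, as did some genes of the list of 19 that were not called there, such as Ddit3. Others that were not called there did not overlap and lay above. These were Atf4, Cebpg, Trib3 and Slc7a11 (adjusted p = 0.136, 0.0957, 0.435 and 0.440 by edgeR). At regular fat Asns was not called (1.29, adjusted p = 0.366 by edgeR).

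The genes whose levels over the 12 mice were most like those of Igfbp1, among 12549 protein-coding genes with a mean of at least 1 CPM, were Rgs1 (Pearson's r 0.885), Ppp1r3g (0.879) and Slc3a2 (0.851). Rgs1 encodes a regulator of G-protein signaling, Ppp1r3g a glycogen-targeting subunit of protein phosphatase 1 and Slc3a2 the heavy chain of amino acid transporters. All 3 had their highest value in replicate 3 of HF.SAAR, at 11.1 CPM for Rgs1, 36.6 CPM for Ppp1r3g and 60.6 CPM for Slc3a2. That mouse also had the largest sum of acinar markers. For Igfbp2 the closest were E2f4 (0.925), Tmem192 (0.924) and Eif3g (0.923), for Igfbp3 Cys1 (0.835), Lyn (0.802) and Cep128 (0.792), for Igfbp4 Kxd1 (0.933), Yipf3 (0.896) and Ypel3 (0.894), and for Igfbp7 Imp3 (0.927), Pdap1 (0.919) and Echdc2 (0.897). Among the 5 themselves r was highest between Igfbp2 and Igfbp7 (0.67), Igfbp2 and Igfbp4 (0.65) and Igfbp4 and Igfbp7 (0.64), and the neighbours Igfbp1 and Igfbp3 had an r of 0.07. These coefficients are descriptions over 12 mice that share libraries, scaling and diets.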

How the data were processed

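Transcript abundances of 12 mouse livers were used. As far as the sources state, the authors trimmed reads with cutadapt and quantified them with kallisto against Ensembl transcripts of GRCm38. The deposited values were estimated counts, TPM and effective lengths per transcript. In the labels the fat level stands under the heading for diet and the reverse, and groups were read from both. Estimated counts were summed per gene with GENCODE M21 (116816 of 118489 transcripts matched; the others held 1.08% of counts) and rounded. Genes were filtered by group (14670 kept), normalized by TMM and tested with edgeR 4.0.16 in R 4.3.3 (robust quasi-likelihood, 4 groups in 1 fit, Benjamini-Hochberg adjustment over all tested genes, threshold 0.05), a pipeline checked on simulated data. DESeq2 1.42.0, limma 3.58.1 on log2(TPM + 1) and other settings were alternatives. Levels are TMM-normalised CPM or deposited TPM. The 5 genes and the gene lists were chosen with earlier results of these data known; named genes are the 5 members, listed genes and the 3 most alike genes per member (log2 CPM, prior count 2). Replicate numbers follow accession order and only name mice. The edgeR p-values set each difference against the spread between mice of a group (3 mice a group). That spread was estimated jointly over the groups in the fit and moderated across genes.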

Additional observations from a re-analysis of the deposited data

How the results depend on the processing

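Of 470 values of the 5 binding proteins under alternatives, 435 kept their direction and their side of the threshold, 27 turned in sign, 8 came to pass and 0 ceased to pass, since none passed at first. The TPM scale and the set without 5 mice rich in acinar RNA were chosen after seeing the data. With library size alone, the SAAR effect was 0.15 for Igfbp4 and 0.11 for Igfbp7 at regular fat, 0.08 for Igfbp3 at high fat and 0.71 for Igfbp2 on average. In TPM it was 0.26 for Igfbp4 and 0.23 for Igfbp7 at regular fat, 0.94 for Igfbp2 and 0.20 for Igfbp3 at high fat, and on average 0.90 for Igfbp2, 0.10 for Igfbp3, 0.31 for Igfbp4 and 0.31 for Igfbp7, with an Igfbp2 interaction of 0.08. With the acinar covariate, Igfbp4 and Igfbp7 were 0.04 each at regular fat and the Igfbp2 fat effect was −0.15. Without the 5 mice, the averaged SAAR effect was 1.58 for Igfbp1 and 0.75 for Igfbp2, the Igfbp2 interaction 0.61, the fat effect −0.01 for Igfbp1, −0.45 for Igfbp2 and −0.02 for Igfbp4, and Stat5a at high fat −0.10. Of the 5 genes, 1 passed at high fat in TPM, where 11.3% of all tested genes passed. On average 1 passed by library size (16.7% of all tested genes) and 3 in TPM (24.3% of all tested genes). The causes were not tested. For the averaged SAAR effect, the median of all tested genes stood at 0.21 on the TPM scale and 0.16 on the library-size scale.

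Genes called for SAAR at regular fat (218) were 425 by library size, 591 by DESeq2, 53 with the most abundant transcript, 530 in TPM and 81 without the 5 mice. At high fat (289) they were 719, 595, 127, 1656 and 6 in the same order, and 190 with the compared groups alone. On average (1015) they were 2449 by library size, 531 with the most abundant transcript, 3572 in TPM and 234 without the 5 mice. Library size called 2175 higher and 274 lower, TPM 3434 and 138, against 472 and 543 in the main result. For fat under the control diet (0) they were 1 by library size, 3 with no low-count filter, 31 by DESeq2, 2 with the compared groups alone, 1 with the acinar covariate and 2 in TPM. Under SAAR (7) they were 4, 14 and 85 for library size, no filter and DESeq2, 1 with the most abundant transcript, 3 with the covariate, 3 in TPM and 0 without the 5 mice. The interaction (1) gave 16 by DESeq2, 2 with the covariate and 0 with length offsets, with the most abundant transcript and in TPM. The averaged fat effect (6) gave 18 with no filter, 122 by DESeq2, 2 with the most abundant transcript, 0 with the covariate and 0 without the 5 mice.

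Leaving out each mouse in turn, the SAAR effect on Igfbp1 ran from 0.29 to 0.82 at regular fat, 0.35 to 2.56 at high fat and 0.47 to 1.57 on average, with an interaction of −0.23 to 1.97. That on Igfbp2 ran from 0.44 to 0.67, 0.18 to 0.92 and 0.38 to 0.75, with an interaction of −0.39 to 0.35, that on Igfbp3 from −0.41 to −0.17, −0.18 to 0.02 and −0.25 to −0.13, that on Igfbp4 from −0.05 to 0.04, −0.09 to 0.10 and −0.05 to 0.04, and that on Igfbp7 from −0.16 to 0.04, −0.10 to 0.24 and −0.08 to 0.09. The averaged effect called 0 to 1 of the 5 genes. All genes called ran from 87 to 244 at regular fat, 110 to 310 at high fat, 655 to 968 on average, 0 to 2 and 1 to 7 for fat under the control and SAAR diets, 0 to 2 for the interaction and 0 to 11 for fat on average. No fit with a block was run, since the labels name no litter, batch or day and no replicate number that mice of different groups share, and the replicate numbers used here follow accession order. With 3 mice a group and a coefficient of variation of 67.7%, changes in Igfbp1 within the printed intervals could not be resolved.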

Other observations

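3 feedback or insulin-responsive genes, named after their values had been seen, differed between a single mouse of RF.SAAR and the rest of that group. Cish, a growth hormone feedback inhibitor, was 9.91, 47.7 and 10.4 CPM in the 3 mice of RF.SAAR, and Socs2, another such inhibitor, was 14.3, 37.9 and 14.8 CPM. Irs2, an insulin receptor substrate, was 9.38, 24.0 and 9.25 CPM in the same order. Igfbp1 in these mice was 135, 81.7 and 78.4 CPM, with its highest value in replicate 1 and not in replicate 2. In HF.SAAR, replicate 3 had the highest Cish (27.4 CPM), Socs2 (46.5 CPM), Irs2 (27.3 CPM) and Igfbp1 (573 CPM) of its group.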
